A study of Mus musculus with 14 samples.

Results

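The 10 genes described here are the transcription factor gene Atf4, genes that ATF4 is known to drive, and enzyme genes of amino acid synthesis: Atf4, Atf5, Ddit3, Trib3, Chac1, Phgdh, Psat1, Asns, Bcat1 and Aldh1l2. They were taken as every probe set (a group of short probes read as 1 value) that the platform annotation assigns to 1 of these genes alone. This gave 21 probe sets for the 10 genes, of 45101 probe sets in the table and 18193 genes with a probe set of their own. The genes were chosen by a list written with the log2 differences between MMP3 and control arrays of experiment A already known, so those differences are described below and not tested.

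All arrays were of SCp2, 1 cell line of mouse mammary epithelium, grown in DMEM with 2% fetal calf serum and kept for 3 days in 35 mm dishes. In experiment A, dishes were plated at 50K, 100K or 250K cells (K for kilo) and each density had 1 dish with MMP3 (matrix metalloproteinase 3, a secreted protease that cuts matrix and cell surface proteins) and 1 control dish. Experiment B had the same agents at 25K, 50K, 100K and 250K. RNA of the 14 dishes was read on 14 Affymetrix mouse arrays, 6 in A and 8 in B, so no combination of agent, density and experiment had a second dish.

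ATF4 is the main effector of the integrated stress response. In this response, kinases that sense amino acid shortage, endoplasmic reticulum stress, viral RNA or heme shortage phosphorylate the translation factor eIF2, most protein synthesis slows, and the ATF4 message is translated more. ATF4 protein then pairs with C/EBP proteins on composite DNA elements near genes for amino acid import, amino acid synthesis and tRNA charging, which in mammary epithelium also supply the making of milk protein. Because ATF4 is controlled in large part at translation, its message does not report its protein.

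The composite element is shown in the promoters of 3 of these genes, since they are the members whose window held the letters searched. Windows ran from 250 bases before to 50 bases after each RefSeq transcript start of the mouse assembly GRCm38.p6. The motif TGATGNAA, a common core of the composite element, and its reverse complement TTNCATCA were searched on both strands; the motif overlaps no other that was searched. Capitals mark the match, and each stretch is written 5′ to 3′ on the strand of its gene.
Asns, chr6:7693210-7693309, minus strand, bases -100 to -1 from the start: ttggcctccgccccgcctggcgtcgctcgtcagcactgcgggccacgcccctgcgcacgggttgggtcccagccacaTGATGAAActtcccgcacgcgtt
Chac1, chr2:119351002-119351101, plus strand, bases -240 to -141: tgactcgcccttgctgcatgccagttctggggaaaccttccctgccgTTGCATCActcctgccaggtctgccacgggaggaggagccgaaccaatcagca
Trib3, chr2:152344031-152344054, minus strand, bases 7 to 30 downstream of the start: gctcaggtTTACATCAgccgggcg

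Of 32851 windows in the RefSeq table, 1304 (3.97%) held the motif. Among the 10 genes, 9 had a window, 12 windows in all, and 3 of the windows held it. In Asns, which encodes asparagine synthetase, the match lay at -23 to -16 on the strand of the gene. In Chac1 it lay at -193 to -186 on the opposite strand. In Trib3 it lay at 15 to 22 downstream of the start, also on the opposite strand. A match of letters is a description and does not show that a factor binds there.

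The deposited values are relative. The median of every probe set over the 14 arrays was 0 within 1e-06, so a value gives the distance of an array from that median on the log2 scale, and the level of a gene, or a comparison of level between genes, cannot be had. For the same reason the epithelial identity of the cells could not be checked against absolute marker levels. In dish lysates, fewer cells of one state and less RNA of a gene per cell cannot be told apart. Nothing in the labels says that dishes of different densities came from separate cultures, so p-values measure only the spread between these arrays.

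Several arrays stood apart. The array labelled MMP3 100K of experiment B had an SD of 0.869 over all probe sets, against 0.232 to 0.412 on the other 13 arrays. Its actin 3′ control probe set stood at -1.82. The interferon response gene Ifit1 was high on the MMP3 arrays of experiment A (2.83 to 4.21) and low on the control arrays of A (-2.98 to -2.91). In experiment B Ifit1 did not follow the labelled agent: it was -2.83 and -2.97 on the MMP3 arrays of 25K and 100K, 4.53 and 5.15 on the MMP3 arrays of 50K and 250K, -2.93 on the control arrays of both 25K and 100K, and 3.71 and 4.26 on the control arrays of 50K and 250K. Values of experiment B below are therefore those of "the array labelled" so, and are also given without the MMP3 arrays of 25K and 100K and the control arrays of 50K and 250K. That leaves MMP3 dishes of 50K and 250K and control dishes of 25K and 100K, with no density under both labels, so agent and the alternation between densities described below cannot be told apart in those values, which are given as descriptions. In experiment A the controls for RNA and labelling also moved with the agent: Gapdh 3′ was -0.189 to -0.045 with MMP3 and 0.093 to 0.304 in controls, and 18S was 0.879 to 1.07 with MMP3 and 0.72 to 0.807 in controls. Their part in the differences was not tested.

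In experiment A, 8 of the 10 genes stood lower on every MMP3 array than on any control array, with differences from 1.55-fold for Chac1 to 8.29-fold for Aldh1l2. Over all genes past the filter on variation, 23.3% lay lower in this way and 19.5% higher. Because the genes were chosen with this contrast known, the count is a description and nothing is read from it. Lower in 3 of 3 pairs were 8 of the 10 genes and 37.4% of all genes past the filter. The 2 other genes were Atf5 and Phgdh, whose MMP3 and control arrays overlapped. Of the 21 probe sets, 16 were lower on all MMP3 arrays than on all control arrays, with no share over all probe sets for comparison. Some of the 16 were nearly flat. Their highest MMP3 and lowest control values were -0.0013 and 0.0013 on a Bcat1 probe set, and -0.0111 and 0.0111 on another. They were -0.0018 and 0.0018 on a Phgdh probe set. On an Atf4 probe set that did not pass the filter they were -0.0043 and 0.0014. The count therefore does not measure agreement between probe sets.

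**Figure D1:**
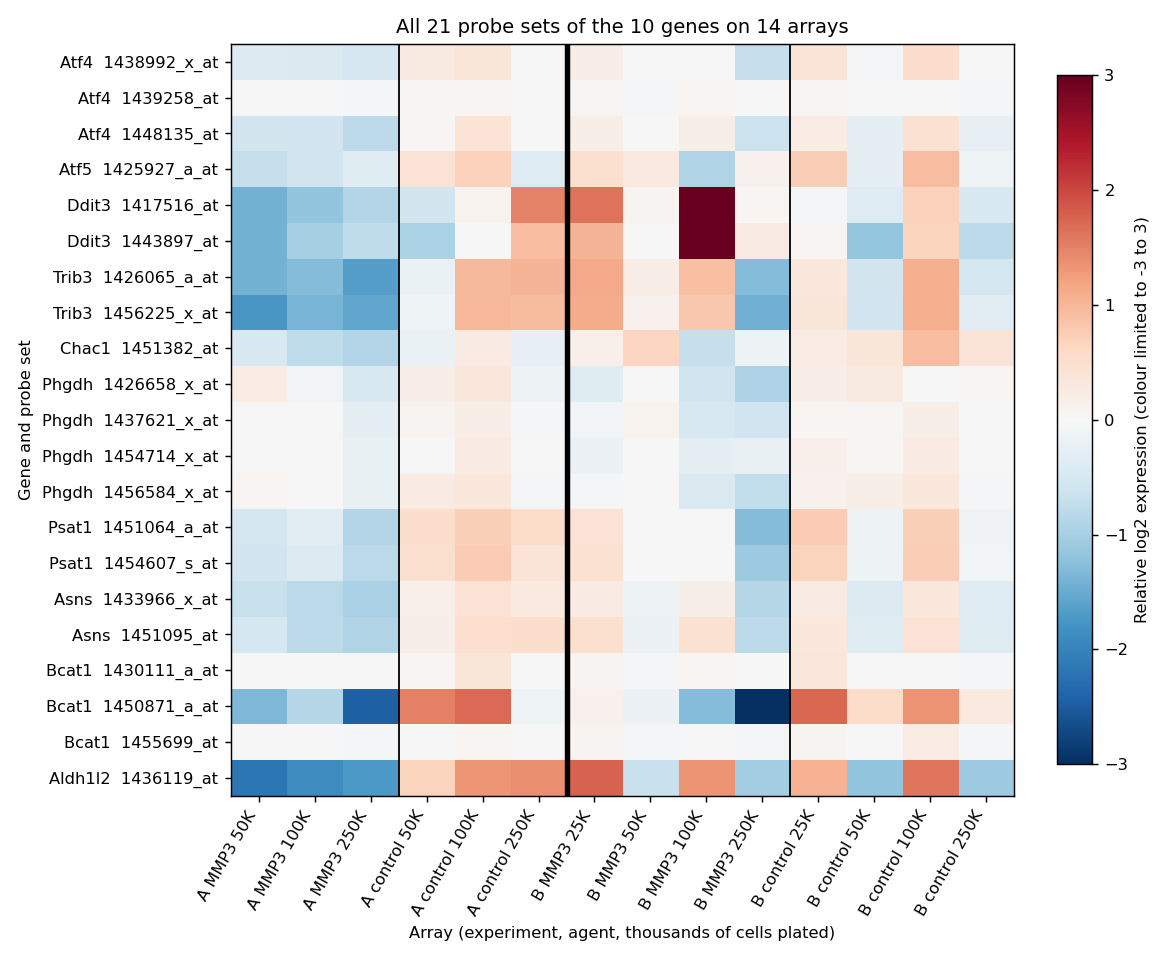
Relative log2 expression of all 21 probe sets (rows) on the 14 arrays (columns, by experiment, agent and cells plated), with blue below and red above the median over the arrays; the thick line parts experiments A and B, and the thin lines part MMP3 arrays (left) from control arrays. In experiment A the MMP3 columns are blue for most rows and the control columns red. In experiment B, 13 of the 21 rows have the 25K and 100K values above the 50K and 250K values under both labels. By gene this order held for 6 of the 10, against 22.9% of all genes past the filter. Nearly flat rows have it without a visible change of colour, and Ddit3 reaches 3.92 on the array labelled MMP3 100K.

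Among the regulators, Atf4 itself (chr15:80255184-80257545 in GRCm38.p6, as are the positions that follow) was lower with MMP3 in experiment A. Its probe set 1448135_at stood at -0.55, -0.57 and -0.78 on the MMP3 arrays of 50K, 100K and 250K, against 0.040, 0.41 and -0.0033 on the control arrays of those densities. The groups did not overlap, and the mean of the 3 pair differences was -0.78 ± 0.19 (SD, n = 3 pairs), or 1.72-fold lower with MMP3. The probe set 1438992_x_at gave -0.65 ± 0.14 (n = 3 pairs), also without overlap. The third, 1439258_at, had an SD of 0.030 over the 14 arrays, did not pass the filter and was not tested.

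Trib3 (chr2:152337425-152344060) encodes a pseudokinase that ATF4 and CHOP (the protein of Ddit3) induce and that dampens their activity. Its probe set 1456225_x_at was -1.75, -1.39 and -1.55 with MMP3 and -0.12, 0.99 and 0.94 in controls at 50K, 100K and 250K of experiment A. All MMP3 values lay more than 1 log2 unit below the lowest control. The mean difference was -2.17 ± 0.47 (SD, n = 3 pairs), 4.49-fold lower with MMP3, and 1426065_a_at gave -2.05 ± 0.76.

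Ddit3 (chr10:127290793-127296291) encodes CHOP, a transcription factor induced downstream of ATF4 and linked to cell death when stress of the endoplasmic reticulum lasts. In experiment A probe set 1417516_at was -1.42, -1.19 and -0.88 with MMP3 at 50K, 100K and 250K and -0.55, 0.10 and 1.49 in controls. Values were higher at each step of density under both agents, and more steeply in controls, so the pair difference widened over the series: it was -0.87 at 50K, -1.29 at 100K and -2.36 at 250K. Its mean was -1.51 ± 0.77 (SD, n = 3 pairs), 2.84-fold lower with MMP3. On 1443897_at the mean was -1.06 ± 0.62 and the groups overlapped, since the control array of 50K stood at -0.94, below 1 of the MMP3 arrays.

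Atf5 (chr7:44812256-44816658) encodes a factor related to ATF4 that is also controlled at translation. It stood at -0.68, -0.59 and -0.37 with MMP3 and 0.43, 0.70 and -0.38 in controls at 50K, 100K and 250K of experiment A. The agents were apart at 50K and 100K and level at 250K, where the difference was 0.014. The mean was -0.80 ± 0.71 (SD, n = 3 pairs), with 2 of 3 pairs lower.

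Chac1 (chr2:119351242-119354326) encodes an enzyme that breaks down glutathione, the main thiol antioxidant of the cell. Its values in A were -0.47, -0.76 and -0.88 with MMP3 and -0.20, 0.25 and -0.24 in controls at 50K, 100K and 250K. The gap between the groups was narrow, with the lowest control just above the highest MMP3 value. The mean difference was -0.64 ± 0.37 (SD, n = 3 pairs), 1.55-fold lower with MMP3.

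Of the enzymes of serine synthesis, Psat1 was apart between the agents on both of its probe sets, and Phgdh on 1 of 4. Psat1 (chr19:15905123-15925059), the transaminase of the pathway, was -0.53, -0.31 and -0.89 with MMP3 and 0.54, 0.72 and 0.55 in controls at 50K, 100K and 250K of experiment A. Its mean difference was -1.18 ± 0.22 (SD, n = 3 pairs), 2.26-fold lower, and the probe set 1454607_s_at gave -1.14 ± 0.066. Phgdh (chr3:98313171-98339969), which commits a glycolytic intermediate to serine, was 0.21, -0.075 and -0.48 with MMP3 and 0.21, 0.33 and -0.16 in controls on 1426658_x_at, so the groups overlapped and the 50K dishes were level. Its 4 probe sets had mean differences from -0.24 to -0.17. The other 3 were lower in 3 of 3 pairs, and 1 of them, 1454714_x_at, had no overlap, with a highest MMP3 value of -0.0018 and a lowest control value of 0.0018. All 4 carry the suffix _x_at, which marks probes that can match several transcripts, and 2 more probe sets name Phgdh together with a further gene and were left out, so its values are less certain than those of the other genes.

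Asns (chr6:7675165-7693209) was -0.52, -0.78 and -0.91 with MMP3 and 0.17, 0.50 and 0.52 in controls at 50K, 100K and 250K of experiment A on 1451095_at. The MMP3 values became lower and the control values higher along the density series. The mean difference was -1.14 ± 0.39 (SD, n = 3 pairs), 2.20-fold lower, and 1433966_x_at gave -1.11 ± 0.24.

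Bcat1 (chr6:144993835-145076157), the cytosolic aminotransferase of leucine, isoleucine and valine, was -1.35, -0.86 and -2.44 with MMP3 and 1.52, 1.70 and -0.13 in controls on 1450871_a_at. Under both agents the 250K array was the lowest. The mean difference was -2.58 ± 0.28 (SD, n = 3 pairs), 5.99-fold lower with MMP3. The other 2 probe sets barely varied over the 14 arrays (SD 0.13 and 0.068), so the mean over the 3 probe sets differed by only -0.93.

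Aldh1l2 (chr10:83487447-83534146), a mitochondrial enzyme that oxidises formyl-tetrahydrofolate in one-carbon metabolism, had the largest difference of the 10 genes in A. It stood at -2.17, -1.88 and -1.73 with MMP3 and at 0.66, 1.31 and 1.40 in controls at 50K, 100K and 250K. The 3 pair differences ran from -3.19 to -2.83, and their mean was -3.05 ± 0.20 (SD, n = 3 pairs), 8.29-fold lower with MMP3.

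**Figure D2:**
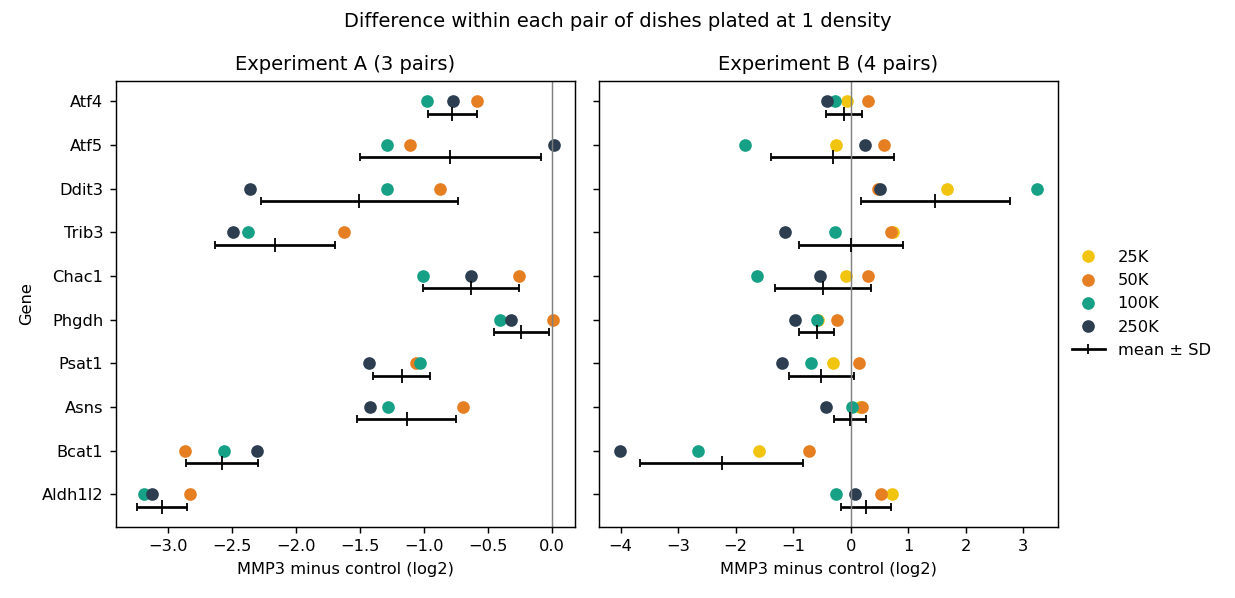
MMP3 minus control (log2, x axis) for 1 probe set of each gene (rows), 1 point per pair of dishes plated at the same density, with the mean and SD of the pairs as a black bar under the points; left, the 3 pairs of experiment A, right, the 4 pairs of experiment B. In A all but 2 points, of Atf5 at 250K and of Phgdh at 50K, lie left of 0, and in B the points of most genes lie on both sides, with all 4 left of 0 for Bcat1 and Phgdh and all 4 right of it for Ddit3.

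In experiment B the MMP3 and control arrays overlapped for 9 of the 10 genes, and no probe set of the 27022 tested passed an adjusted p of 0.05 for MMP3 against control (limma, Benjamini-Hochberg), with a lowest adjusted p of 0.324. At an unadjusted p below 0.05 (limma) there were 2864 probe sets (10.6%), and 4 of the 20 tested probe sets of the 10 genes. Those 4 were all of Bcat1 or Phgdh, and probe sets of the same gene are not separate observations. Bcat1 was the member with the lowest p. It stood at 0.13, -0.18, -1.30 and -3.73 on the arrays labelled MMP3 of 25K, 50K, 100K and 250K, against 1.73, 0.55, 1.36 and 0.29 on those labelled control. Every array labelled MMP3 lay below every array labelled control, as was so for 5.39% of genes, while 5.2% lay above in that way. The fitted difference was -2.25 (SE 0.38, limma adjusted p = 0.324), 4.75-fold lower, and lower in 4 of 4 pairs. Without the 4 arrays that Ifit1 sets against their labels it was -2.38, and without the array labelled MMP3 100K it was -2.36. As the mean of the 3 probe sets of Bcat1 it was -0.78.

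Phgdh was the other gene lower with MMP3 in all 4 pairs of B, as were 17.2% of genes. Its values were -0.37, 0.017, -0.59 and -0.91 on the arrays labelled MMP3 of 25K, 50K, 100K and 250K, and 0.20, 0.26, -0.017 and 0.063 on those labelled control. The array labelled MMP3 50K reached into the control range. The difference was -0.59 (SE 0.16, limma adjusted p = 0.352), 1.51-fold lower, and -0.22 without the 4 arrays. The other 3 probe sets of the gene gave -0.45, -0.34 and -0.27.

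Ddit3 was the only gene of the 10 that was higher with MMP3 in all 4 pairs of B, as were 17.7% of genes. On 1417516_at it stood at 1.63, 0.083, 3.92 and 0.050 on the arrays labelled MMP3 of 25K, 50K, 100K and 250K, and at -0.050, -0.40, 0.69 and -0.46 on those labelled control. Its highest value, on the 100K array with the MMP3 label, was also the highest relative value of any of the 10 genes and came from the array with the widest spread over all probe sets. The difference was 1.48 (SE 0.995, limma adjusted p = 0.649). It was 0.61 without that array, and -0.42 without the 4 arrays, where no density is shared. The probe set 1443897_at gave 1.57 (SE 0.999, limma adjusted p = 0.634).

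For Aldh1l2, the gene farthest apart in A, the values of experiment B alternated between the labelled densities and differed less between the labelled agents. It was 1.77, -0.66, 1.36 and -1.03 on the arrays labelled MMP3 of 25K, 50K, 100K and 250K, and 1.05, -1.18, 1.61 and -1.10 on those labelled control. At each density the arrays of both labels lay within 0.72 of each other, while arrays of neighbouring densities differed by more than 2 log2 units. The difference between agents was 0.27 (SE 0.92, limma adjusted p = 0.914). The value without the 4 arrays was -2.20, which sets dishes of 50K and 250K against dishes of 25K and 100K and so holds the alternation itself.

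Trib3 had the same order, with 1.11, 0.12, 0.82 and -1.45 on the arrays labelled MMP3 and 0.37, -0.58, 1.10 and -0.30 on those labelled control. Its difference was 0.0070 (SE 0.53, limma adjusted p = 0.997) and -1.12 without the 4 arrays. Asns was 0.48, -0.17, 0.45 and -0.78 with the MMP3 label and 0.32, -0.36, 0.43 and -0.36 with the control label. Both genes were low at 50K and 250K under either label. The difference of Asns was -0.015 (SE 0.31, limma adjusted p = 0.990) and -0.70 without the 4 arrays.

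Atf4 was 0.16, 0.0033, 0.19 and -0.64 on the arrays labelled MMP3 of 25K, 50K, 100K and 250K and 0.23, -0.30, 0.46 and -0.24 on those labelled control. Its difference was -0.11 (SE 0.24, limma adjusted p = 0.863), and -0.54 without the 4 arrays. Psat1 was 0.44, -0.0083, 0.0083 and -1.30 with the MMP3 label and 0.75, -0.15, 0.70 and -0.11 with the control label. Here 3 of 4 pairs were lower with MMP3, and the array of 250K was far below the rest. The difference of Psat1 was -0.52 (SE 0.29, limma adjusted p = 0.592) and -0.998 without the 4 arrays.

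Atf5 and Chac1 followed neither the agent nor that alternation throughout. Atf5 was 0.49, 0.30, -0.91 and 0.13 with the MMP3 label and 0.74, -0.28, 0.92 and -0.13 with the control label, and its difference was -0.31 (SE 0.43, limma adjusted p = 0.795). Chac1 was 0.15, 0.65, -0.70 and -0.15 with the MMP3 label and 0.22, 0.36, 0.93 and 0.38 with the control label, and its difference was -0.49 (SE 0.31, limma adjusted p = 0.637). For both genes the 100K pair was the farthest apart, at -1.83 for Atf5 and -1.64 for Chac1. That pair holds the array labelled MMP3 100K, which had the widest spread over all probe sets and the lowest value of both genes in B. Under the control label Atf5 did have the alternation. Without the 4 arrays the differences were -0.61 for Atf5 and -0.27 for Chac1.

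Taking the alternation as a rule after it had been seen, 6 of the 10 genes (Atf4, Ddit3, Trib3, Psat1, Asns and Aldh1l2) had both the 25K and the 100K array above both the 50K and the 250K array, within each label of experiment B. Over all genes past the filter 22.9% had this order, and 19% had the opposite one. Ifit1 ran the other way, low on the 25K and 100K arrays and high on the 50K and 250K arrays under both labels. Its part in the order of the 10 genes was not tested.

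**Figure D3:**
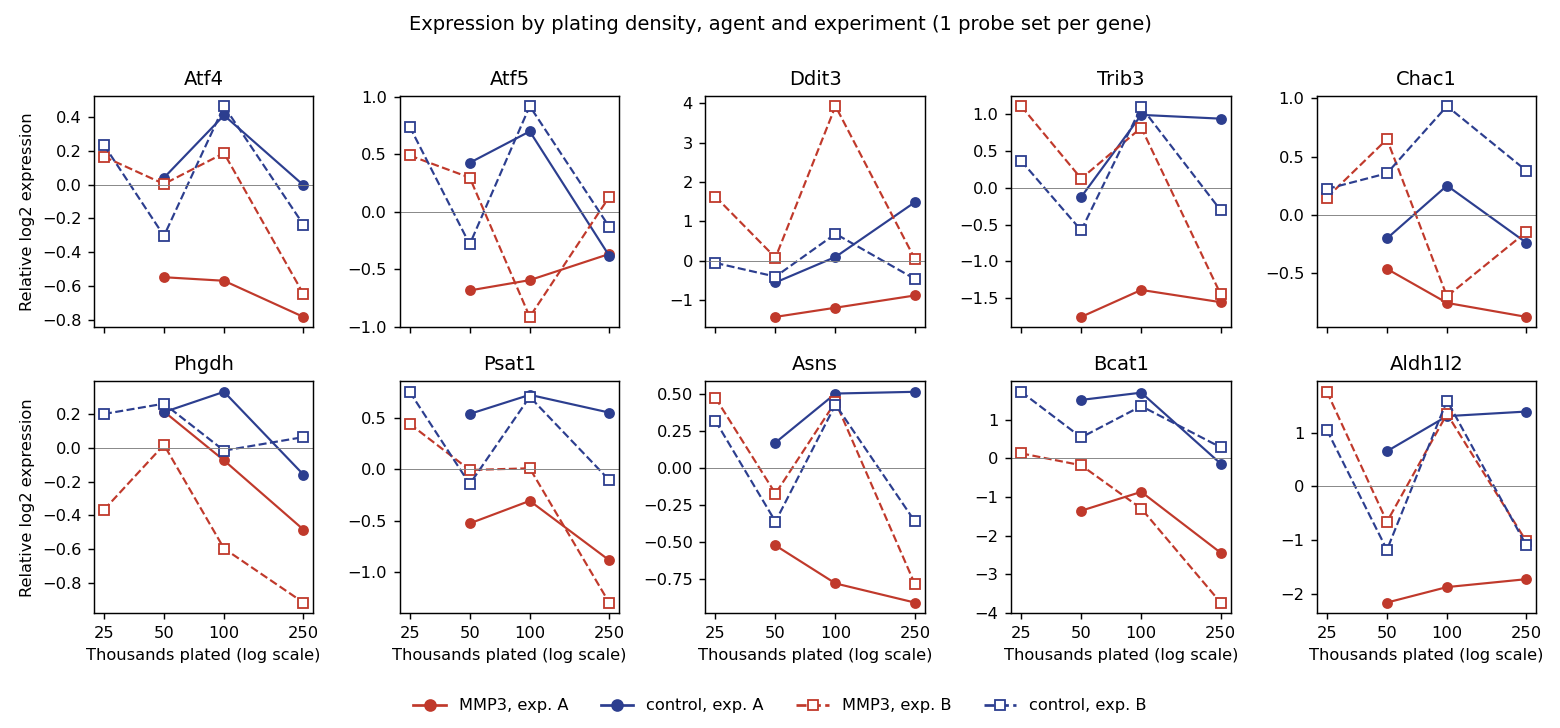
Relative log2 expression (y axis) of 1 probe set per gene against the cells plated (x axis in K, log scale), with 1 point per array; red marks MMP3, blue control, filled circles and full lines experiment A, open squares and broken lines experiment B. In A the red line runs below the blue one for all genes but Atf5 at 250K and Phgdh at 50K, and in B both lines zigzag together for Atf4, Trib3, Asns and Aldh1l2.

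Density was tested as the slope per doubling of plated cells, as the mean of both agents. No probe set passed an adjusted p of 0.05 in experiment A, in experiment B or over both (limma, Benjamini-Hochberg over 27022 probe sets). Unadjusted p-values fell below 0.05 for 27% of probe sets in A, 3.59% in B and 10.6% over both. Of the 20 tested probe sets of the 10 genes, 4 did so in A, 3 in B and 7 over both. Slopes over both experiments were negative for 18 of the 20, with a median of -0.14, against 49.84% negative and a median of 3e-04 over all probe sets. In A alone 15 of the 20 were negative, against 52.59% of all probe sets. The slopes over both include the alternation of B, and the 20 probe sets of 10 genes are not separate observations. The count therefore does not show a steady fall with density.

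Bcat1 had the steepest slope of the 10 genes, at -0.71 (SE 0.14) over both experiments, with a limma adjusted p of 0.159, the lowest in that comparison. It was -0.63 (SE 0.25, limma adjusted p = 0.226) in A and -0.75 (SE 0.15, limma adjusted p = 1) in B. From 50K to 250K the Bcat1 value changed by -1.09 with MMP3 and by -1.65 in controls of A, and by -3.56 with MMP3 and -0.25 in controls of B. All 4 steps were downward, and the 2 in B were the farthest apart. The other 2 probe sets had slopes of -0.046 and -0.014 over both experiments, and the mean of the 3 probe sets had -0.26.

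Ddit3 in experiment A was the steepest positive slope, at 0.56 (SE 0.049, limma adjusted p = 0.115) on 1417516_at and 0.54 (SE 0.043, limma adjusted p = 0.115) on 1443897_at. From 50K to 250K of A it changed by 0.54 with MMP3 and by 2.03 in controls. The slope with MMP3 minus that in controls was -0.65 (SE 0.098, limma adjusted p = 0.427), and no probe set passed that test in A, where 11.4% had an unadjusted p below 0.05. In B the steps of Ddit3 from 50K to 250K were -0.033 with the MMP3 label and -0.059 with the control label on 1417516_at, and on 1443897_at 0.25 with the MMP3 label and 0.38 with the control label. The slope of 1417516_at in B was -0.090 (SE 0.40, limma adjusted p = 1).

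Phgdh had slopes of -0.24 (SE 0.058, limma adjusted p = 0.140) in A, -0.14 (SE 0.066, limma adjusted p = 1) in B and -0.17 (SE 0.053, limma adjusted p = 0.270) over both. All 4 of its steps between 50K and 250K were downward: -0.70 with MMP3 and -0.37 in controls of A, and -0.93 with MMP3 and -0.20 in controls of B. Psat1 had -0.25 (SE 0.089, limma adjusted p = 0.318) over both experiments. Its step between 50K and 250K was -0.36 with MMP3 and 0.013 in controls of A, and -1.29 with MMP3 and 0.040 in controls of B. The other 6 genes had slopes over both experiments from -0.26 for Aldh1l2 to -0.070 for Chac1, with limma adjusted p-values of 0.695 to 0.931.

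**Figure D4:**
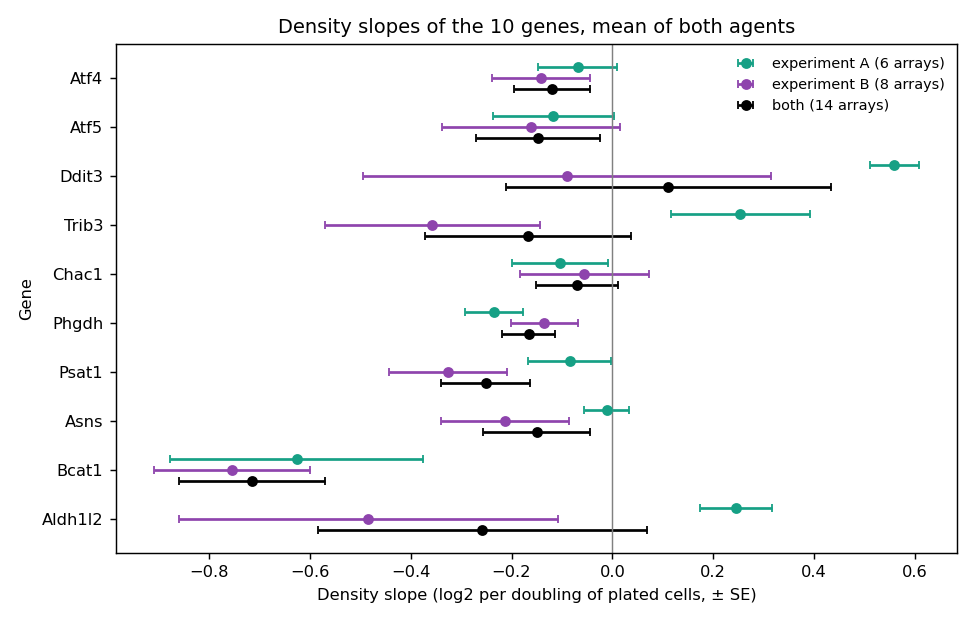
Density slope (log2 per doubling of plated cells, x axis) of 1 probe set per gene (rows), with SE bars, for experiment A (green, 6 arrays), experiment B (violet, 8 arrays) and both (black, 14 arrays). Bcat1 lies left of 0 in all 3 fits, at -0.63, -0.75 and -0.71, while Ddit3, Trib3 and Aldh1l2 are right of 0 in A and left of it in B.

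In B, 20 of 20 tested probe sets of the 10 genes had a negative slope, against 51.25% of all probe sets. An even alternation with 25K and 100K above 50K and 250K gives a negative slope in this fit by itself. The order described above was held by 13 of the 21 probe sets, so the count does not show a steady fall with density. Several genes have more than 1 probe set, so the 20 are not separate observations. The array labelled MMP3 250K held the lowest value of Atf4, Trib3, Phgdh, Psat1, Asns and Bcat1 in that experiment. Without it the slopes in B were -0.029 for Atf4, -0.099 for Trib3, -0.19 for Psat1, -0.068 for Asns, -0.087 for Phgdh and -0.52 for Bcat1. The slope of B minus that of A, fitted on the 12 arrays of the shared densities, ran from -0.68 for Ddit3 to 0.11 for Atf5. No probe set passed an adjusted p of 0.05 in that test (limma), and 0.825% had an unadjusted p below 0.05, none of them of the 10 genes. For the difference in slope between agents in B, 0.881% had an unadjusted p below 0.05, and among the 10 genes Bcat1 did, at -0.86 (SE 0.31, limma adjusted p = 1).

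Within the set, the genes differed in how closely they followed each other over the 14 arrays. Each probe set was divided by its SD and the 21 were averaged into 1 profile, which was lowest on the MMP3 250K arrays of both experiments (-1.19 in A, -1.23 in B) and highest on the 100K controls of both (1.03 in each). Psat1 (r = 0.984 on 1454607_s_at), Atf4 (r = 0.975 on 1448135_at) and Asns (r = 0.96 on 1433966_x_at) lay closest to the profile, of which they are part. Ddit3 lay farthest, at 0.404 and 0.345 on its probe sets. With 1 probe set per gene, the one with the largest SD, the highest correlation between genes was that of Asns with Aldh1l2 and with Trib3 (r = 0.953 for both) and the lowest that of Ddit3 with Phgdh (r = -0.444). These are descriptions over 14 arrays that share 2 experiments and 1 normalization.

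Of all genes outside the set, those whose probe set correlated best with this profile over the 14 arrays were Gars (r = 0.973), which charges tRNA with glycine, Slc7a5 (0.972), an importer of large neutral amino acids, Banf1 (0.971), Mthfd2 (0.966), a mitochondrial enzyme of one-carbon metabolism, Pde4dip (0.962), Gfer (0.961), Farsb (0.961), a subunit of the phenylalanine tRNA synthetase, Zfp131 (0.960), Gpt2 (0.960), a mitochondrial alanine transaminase, and Hdgf (0.956). Their mean differences between MMP3 and control in A ran from -1.71 for Gpt2 to -0.41 for Banf1. The profile itself was lower on every MMP3 array than on every control array of A. The direction of these differences therefore follows from how the genes were picked, and nothing is read from it.

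Lists of related genes, 5 in all, were set beside the 10. Lists and members were all written with results of these data known, and no list gene passed an adjusted p of 0.05 in any of the density, interaction or experiment B tests (limma), so the genes named here were chosen after their values were seen. Of 18 aminoacyl-tRNA synthetase genes past the filter, 11 were lower on all MMP3 arrays than on all control arrays of A and 0 were higher, against 23.3% lower and 19.5% higher over all genes past the filter, with a median difference of -0.39. Eprs stood at -0.85 ± 0.30, Aars at -0.84 ± 0.22 and Gars at -0.83 ± 0.19 (SD, n = 3 pairs). For comparison the median over all genes past the filter was -0.018. In B, 8 of the 18 were lower and 2 higher in 4 of 4 pairs, against 17.2% and 17.7% of all genes, with a median of -0.24.

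Of 12 genes for proline, transamination and sulphur amino acid enzymes, 9 were lower without overlap in A (75%, against 23.3% of all genes), with a median of -0.49. Cbs, which joins homocysteine and serine, differed by -1.93 ± 1.12, Gpt2 by -1.80 ± 0.44 and Aldh18a1, which starts proline synthesis, by -1.39 ± 0.58. In B, 0 of the 12 were lower and 4 higher in 4 of 4 pairs, against 17.2% lower and 17.7% higher over all genes, with a median of 0.0080. Cbs stood at 1.21 ± 1.01 in B, higher in all 4 pairs. Of 8 genes of serine, glycine and one-carbon synthesis, 2 were lower without overlap in A, or 25%, near the 23.3% of all genes: Mthfd2 at -1.04 ± 0.16 and Psph, the last enzyme of serine synthesis, at -0.88 ± 0.15. The median of these 8 was -0.46 in A and -0.73 in B, and 3 of them were lower in all 4 pairs of B, as were 17.2% of all genes.

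Other known targets of the integrated stress response went both ways. Of 23, 15 were lower and 4 higher with MMP3 without overlap in A, against 23.3% lower and 19.5% higher over all genes, with a median of -0.78. The count of higher genes was thus near the background. Lower genes included the amino acid transporter gene Slc7a5 (-1.44 ± 0.15), the translation inhibitor gene Eif4ebp1 (-1.35 ± 0.17) and Stc2, a secreted glycoprotein gene (-1.71 ± 0.82). The higher ones were Nupr1 (1.19 ± 0.37), Ero1a (0.58 ± 0.30), Ppp1r15a (0.55 ± 0.13), which encodes the subunit that directs a phosphatase to eIF2, and Atf3 (0.48 ± 0.41). In B, 2 of the 23 were lower and 5 higher in 4 of 4 pairs, with a median of 0.23. Over all genes 17.2% were lower and 17.7% higher in this way, so the count of higher genes was again near the background.

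Genes for the kinases that phosphorylate eIF2, its phosphatase and their partners lay on both sides of 0 in A. Of 11, 1 was lower and 3 were higher without overlap in A, against 23.3% lower and 19.5% higher over all genes, with a median of -0.091. In so short a list the count of higher genes was not far from the background. The higher ones were the kinase genes Eif2ak2, which encodes the sensor of double-stranded RNA and is itself induced by interferon, at 1.80 ± 0.71, Eif2ak3 at 0.58 ± 0.16 and Eif2ak4 at 0.16 ± 0.012. In B, 2 of the 11 were lower and 1 was higher in 4 of 4 pairs, with a median of -0.24. Over all genes 17.2% were lower and 17.7% higher in this way. There Eif2ak2 differed by -0.24 ± 1.28, Eif2ak3 by 0.15 ± 0.19 and Eif2ak4 by -0.13 ± 0.31. The median of the 10 genes was -1.16 in A and -0.21 in B.

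**Figure D5:**
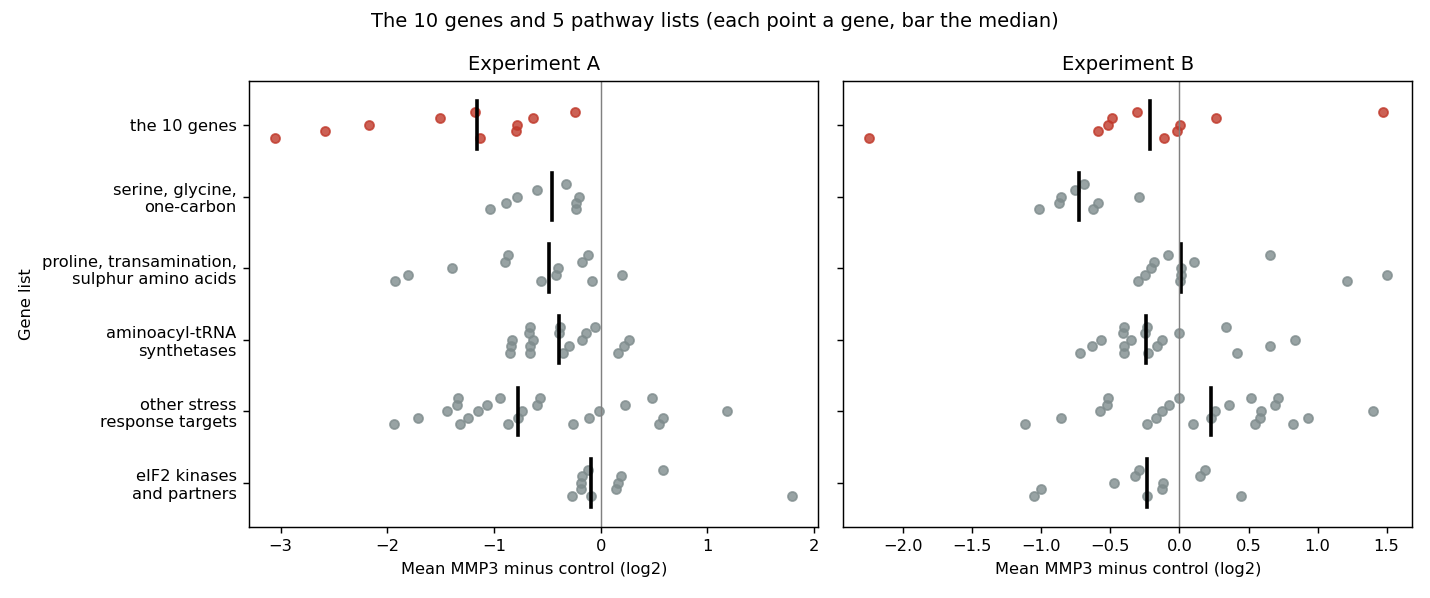
Mean MMP3 minus control (log2, x axis) of each gene (points) in the set of 10 (red) and in 5 pathway lists (grey), with the median of each list as a black bar; left, experiment A, right, experiment B. In A the medians run from -1.16 for the 10 genes to -0.091 for the eIF2 kinases and partners, and in B from -0.73 for the serine and one-carbon list to 0.23 for the other stress response targets.

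Markers of other cell types were compared between the groups, as relative values. In A the mean over 9 mammary epithelial markers was 0.043 to 0.089 on MMP3 arrays and -0.054 to 0.029 on control arrays, that over 6 macrophage markers was -0.026 to -0.0040 on MMP3 arrays and 0.020 to 0.296 on control arrays, and that over 6 fibroblast markers was -0.172 to 0.043 on MMP3 arrays and -0.069 to 0.358 on control arrays. Among the epithelial markers of A, Epcam was higher with MMP3 at 1.18 ± 0.096 and Cdh1 at 0.89 ± 0.068, and Krt5 was lower at -1.03 ± 0.079 (SD, n = 3 pairs). In B the epithelial mean was -0.60 to 0.24 on arrays labelled MMP3 and 0.0040 to 0.050 on arrays labelled control, and the macrophage mean was 0.063 to 0.758 with the MMP3 label and -0.027 to 0.114 with the control label. Of the macrophage markers past the filter, Cd68 differed by 1.78 ± 2.07 in B and by -0.70 ± 1.01 in A. The others, Cd14, Csf1r and Lyz2, differed by -0.098, 0.082 and -0.14 in B and by -0.14, -0.015 and 0.016 in A. The fibroblast mean of B was 0.022 to 0.404 with the MMP3 label and -0.217 to 0.109 with the control label, and Pdgfra was higher with the MMP3 label in all 4 pairs, by 1.52 ± 0.64. In A Pdgfra differed the other way, by -0.90 ± 0.80, with overlap between the groups. Dcn, the other fibroblast marker past the filter, differed by 0.25 ± 0.49 in B and by -0.015 ± 0.0064 in A. Endothelial and adipocyte means stayed within 0.101 of 0 on all arrays. The part of these markers in the values of the 10 genes was not tested.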

How the data were processed

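The table deposited by the authors holds log2 expression values from Affymetrix mouse arrays (200 ng of total RNA each), made with RMA per the submitters' processing notes. The log base and the centring are unstated and were inferred from RMA's usual output and the values; neither a version of RMA nor a later step is named in the labels. No scanner files were used, so signal over background is unknown, and the number of arrays limits the precision.

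Groups came from the labels. Probe sets that are not controls (45037) were tested with limma 3.58.1 (R 4.3.3, lmFit and eBayes, Benjamini-Hochberg, threshold 0.05) where their SD over the 14 arrays was at least 0.049, the 40th percentile, which kept 27022. Terms were agent, centred log2 density and their product, in A, in B, and over both with experiment as a block, because the letters stand for separate experiments in the labels. Residual degrees of freedom were 2, 4 and 9. Deviations from group means correlated at 0.052 on average within an experiment (-0.645 to 0.636, 30 pairs of arrays). A group here is 1 agent at 1 density, with 1 array of A and 1 of B. Their deviations mirror each other, so the pairs within B repeat those within A and the 30 are not separate values. Counts per gene used the probe set with the largest SD of each of 11812 genes. The code was tested on simulated data.

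Members, lists and tests were chosen with earlier results of these data known. Of 115 genes in the pathway and marker lists, 105 had a probe set. The rule for naming gave the 10 members, up to 4 per list past the threshold for density (none passed), the 10 nearest in profile, and checks of the arrays; every list and marker gene named beyond these was chosen after its values were seen. Alternatives were other filters, units, normalizations, models and arrays left out.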

Additional observations from a re-analysis of the deposited data

Results flagged for a closer look

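As labelled, Ddit3 differed in opposite directions in the 2 experiments: every pair of dishes was lower with MMP3 in A and every pair higher with the MMP3 label in B. On 1417516_at the mean difference was -1.51 in A (3 pairs) and 1.48 in B (4 pairs), and on 1443897_at it was -1.06 in A and 1.57 in B. The difference between the experiments was not tested, since the values of A were known when the gene was listed. Of 11812 genes, 848 (7.18%) were lower in all pairs of A and higher in all pairs of B.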

How the results depend on the processing

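The counts of probe sets past the threshold were 0 for all 7 tested comparisons under every alternative run, so no call was gained or lost. With no replicate block the count for the density slope over both experiments stayed 0, and the slope of Ddit3 turned to -0.0011. A block for each pair was not run for the slope, which lies between pairs; for MMP3 in B the pair as a block left each difference as it was. Without the 25K dishes the slope of Aldh1l2 over both experiments turned to 0.043. Quantile normalization turned the MMP3 difference in B to -0.15 for Trib3 and -0.31 for Aldh1l2. Without the MMP3 arrays of 25K and 100K and the control arrays of 50K and 250K of B, chosen for Ifit1 and fitted without the product on dishes that share no density between the labels, the slope in B turned to 0.15 for Ddit3 and 0.027 for Aldh1l2, and the MMP3 difference in B to -0.42 for Ddit3, -1.12 for Trib3 and -2.20 for Aldh1l2; agent and the alternation between densities cannot be told apart there. For the other alternatives the cause was not tested.

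Leaving out 1 array at a time turned the sign of these values. Slopes in A ranged from -0.21 to 0.13 for Atf4, -0.34 to 0.21 for Atf5, -0.27 to 0.14 for Chac1, -0.22 to 0.11 for Psat1 and -0.077 to 0.085 for Asns, all with a positive value without the 250K control. Slopes in B ranged from -0.21 to 0.56 for Ddit3 and -0.17 to 0.082 for Chac1. Over both experiments they ranged from -0.069 to 0.44 for Ddit3, -0.29 to 0.062 for Trib3 and -0.42 to 0.10 for Aldh1l2. The MMP3 difference in B ranged from -0.26 to 0.065 for Atf4, -0.31 to 0.48 for Trib3, -0.20 to 0.21 for Asns and -0.27 to 0.85 for Aldh1l2. The number of the 10 genes lower in every pair of B ranged from 2 to 5, with 5 without either 50K array, which leaves 3 pairs. The differences of A kept their sign under all alternatives run, all chosen after the data were seen; that of Bcat1 ran from -3.70 with quantile normalization to -0.93 as the mean of its probe sets.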
